A study of Mus musculus with 12 samples.

Results

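The axonemal dynein heavy chains are the motor subunits of the dynein arms, and 10 of their genes were chosen by symbol for description: *Dnah5*, *Dnah9* and *Dnah11* of the outer arm, and *Dnah1*, *Dnah2*, *Dnah3*, *Dnah6*, *Dnah7b*, *Dnah10* and *Dnah12* of the inner arms. Counts were read for 8 of these 10 among the 24421 genes listed, 3 of the outer arm and 5 of the inner arms. *Dnah3* and *Dnah12* were not analysed here. Lung and liver were taken soon after birth from 3 *Man1a2* wild-type (WT) and 3 *Man1a2* null newborn mice, bred from parents heterozygous for the *Man1a2*tm1.1Ahe allele, in which exon 2 is deleted. This gave 4 groups of 3 libraries, WT lung, null lung, WT liver and null liver, each made from poly-A RNA of whole tissue. The deletion is carried by every cell of the null pups, so no group isolates its effect in one cell type. MAN1A2 is a Golgi mannosidase that trims N-glycans, and the comparison asked which genes differ in the lung and liver of pups without it.

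Motile cilia bend when dynein arms, anchored along the axoneme's microtubule doublets, walk on the neighbouring doublet. Outer arms set the beat frequency, and in mammals they pair DNAH5, the gamma-type heavy chain, with DNAH9 or DNAH11, the beta-type heavy chains. Inner arms shape the waveform: DNAH2 and DNAH10 share the double-headed arm, and DNAH1, DNAH6 and DNAH7 are found in single-headed arms. In lung these proteins belong to the multiciliated cells of the airway, and loss of several of them causes primary ciliary dyskinesia, often with misplaced organs. Bile duct cells of the liver carry primary cilia, which lack dynein arms, and hepatocytes largely lack cilia.

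Each library held 26759463 to 42914295 counts. *Man1a2* was lower in every null lung (56.7 to 66.3 CPM, normalised counts scaled to library size) than in every WT lung (99.5 to 141 CPM), and lower in every null liver (36.8 to 40.4 CPM) than in every WT liver (40.7 to 67.5 CPM). The library labelled null lung 1 stood apart. It correlated with the other lungs at 0.839 to 0.860, held 931 counts of *Sftpc*, the surfactant protein gene of alveolar type 2 cells, against 471108 to 867673 in the other lungs, and 133940 counts of *Acta1*, a skeletal muscle actin gene, against 162 to 404. Null liver 1, the liver library of the same number, held 92622 *Acta1* counts against 30 to 68 in the other livers. The labels do not say whether equal numbers mean the same pup. Results in lung are therefore given with and without null lung 1. Tissue is a mixture of cells, and a change in the number of multiciliated cells cannot be told apart from a change in RNA per cell.

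All 8 genes are long, with exons that together span more than 12 kb, and they are scattered over the genome. In GRCm38, *Dnah5* lies on the plus strand of chromosome 15 from 28203752 to 28472052, with 79 exons in its longest coding transcript. *Dnah2* lies on the minus strand of chromosome 11 from 69420809 to 69549110, with 86 exons, and *Dnah9* shares that chromosome and strand from 65831282 to 66168551. *Dnah10* is on chromosome 5, *Dnah6* on 6, *Dnah11* on 12, *Dnah1* on 14 and *Dnah7b* on 1. The promoters of 9 of the 10 genes were matched in RefSeq. The 250 bases before the start are shown for 4 genes, *Dnah5* as the outer arm gene with the largest difference between genotypes in lung, *Dnah10* as the member with more than a single copy of the motif searched, and *Dnah2* and *Dnah7b* as the members that changed in liver. They are printed along the gene's strand from RefSeq for GRCm38.p6, at chr15:28203516-28203765, chr5:124724835-124725084, chr11:69549109-69549358 and chr1:46066603-46066852 in that order, with GTTGCC in capitals. The RefSeq start of *Dnah7b* lies inside the GENCODE gene, which runs on the plus strand from 46066315 to 46373546.

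Dnah5: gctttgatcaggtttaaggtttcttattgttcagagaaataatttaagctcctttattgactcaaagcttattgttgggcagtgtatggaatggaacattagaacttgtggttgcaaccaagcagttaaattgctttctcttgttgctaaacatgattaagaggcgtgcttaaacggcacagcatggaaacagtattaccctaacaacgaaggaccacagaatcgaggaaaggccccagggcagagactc

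Dnah10: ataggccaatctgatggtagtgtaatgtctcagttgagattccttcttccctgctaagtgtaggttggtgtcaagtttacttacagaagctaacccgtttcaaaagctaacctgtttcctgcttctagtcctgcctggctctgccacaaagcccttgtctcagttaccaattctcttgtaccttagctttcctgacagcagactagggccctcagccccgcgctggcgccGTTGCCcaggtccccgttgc

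Dnah2: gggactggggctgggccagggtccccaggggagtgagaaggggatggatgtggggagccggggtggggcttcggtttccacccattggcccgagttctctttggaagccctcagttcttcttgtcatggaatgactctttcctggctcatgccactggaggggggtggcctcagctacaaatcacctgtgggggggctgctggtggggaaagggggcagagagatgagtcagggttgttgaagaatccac

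Dnah7b: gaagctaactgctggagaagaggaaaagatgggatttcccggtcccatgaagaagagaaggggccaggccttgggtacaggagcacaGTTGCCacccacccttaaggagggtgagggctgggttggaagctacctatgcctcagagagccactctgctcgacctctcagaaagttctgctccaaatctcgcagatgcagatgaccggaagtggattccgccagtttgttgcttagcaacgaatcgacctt

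GTTGCC is one arm of the X-box bound by RFX factors, which together with FOXJ1 switch on genes of motile cilia. It was searched on both strands in the 300 bases from 250 before to 50 after each start, and was found in 2 of the 9 promoters, those of *Dnah10*, with a second copy just after the start, and *Dnah7b*. It was found in 12.4% of all 32544 promoters of this length. The whole X-box was found in 0 of the 9 and in 1.53% of all promoters, and the forkhead core GTAAACA in 0 of the 9 and in 3.66%. The X-box was searched as GTNRCC, a short spacer and RGYAAC (N any base, R A or G, Y C or T), by exact match only. Near matches were not counted, such as gttgcttagcaac in the *Dnah7b* promoter and gttgctaagcaac in that of *Dnah6*. The 0 of the 9 therefore does not mean that these promoters lack an X-box. These are descriptions of short windows of letters and not of binding.

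All 8 genes were counted in every lung, from 104 counts for *Dnah1* in WT lung 2 to 989 for *Dnah6* in null lung 2. Levels are compared between genes per kilobase of their joined exons from CPM (RPKM). In WT lung *Dnah6*, an inner arm gene, had the highest mean level at 0.614 ± 0.153 RPKM (SD, n = 3). It was followed by *Dnah5* at 0.429 ± 0.208 RPKM, *Dnah10* at 0.393 ± 0.126 RPKM and *Dnah9* at 0.378 ± 0.0735 RPKM. *Dnah11* had 0.372 ± 0.105 RPKM, *Dnah2* 0.291 ± 0.0557 RPKM and *Dnah1* 0.257 ± 0.0358 RPKM. Each of these overlapped with its neighbour in the order. *Dnah7b* was lowest at 0.180 ± 0.0190 RPKM, and its 3 WT lungs lay below those of *Dnah1*. That place depended on the length used: with the longest coding transcript in place of all exons *Dnah7b* stood at 0.292 RPKM and *Dnah1* at 0.260 RPKM.

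The outer and inner arms kept a similar balance in all 6 lungs. The 3 outer arm genes together had 0.771, 1.54 and 1.23 RPKM in WT lungs 1 to 3, and 3.06, 3.31 and 2.51 RPKM in null lungs 1 to 3. The 5 inner arm genes together had 1.40, 2.11 and 1.69 RPKM in the WT lungs and 4.29, 4.68 and 3.90 RPKM in the null lungs. Both sums were higher in every null lung than in every WT lung. The outer arm genes made up 35.6% to 42.1% of the total in WT lung and 39.2% to 41.6% in null lung, and these ranges overlapped. Within the WT lungs, WT lung 1 had the lowest level for 7 of the 8 genes.

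**Figure D1:**
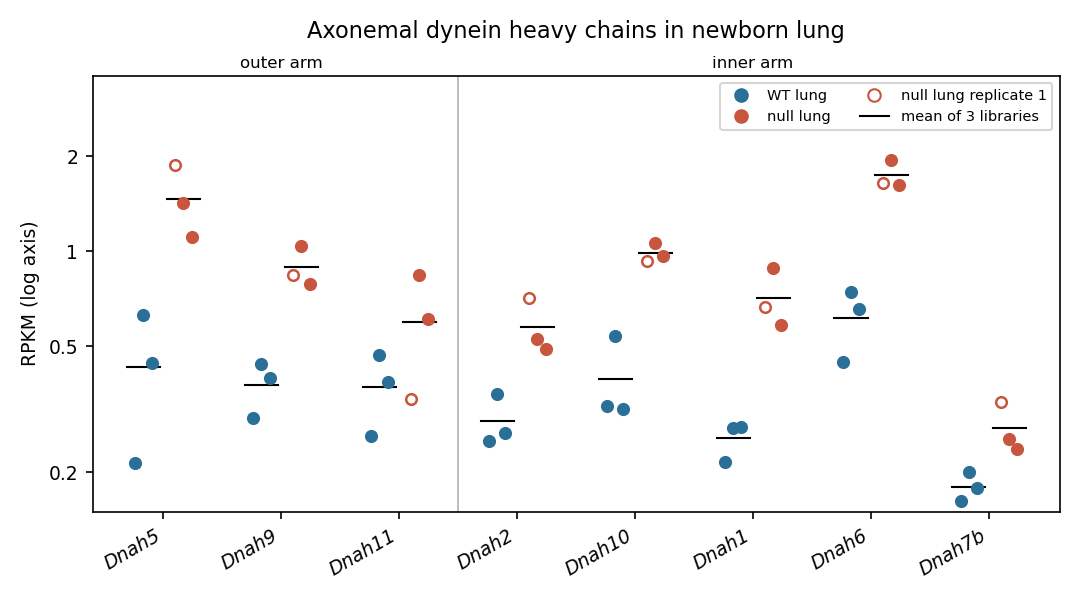
Level of each dynein heavy chain gene in each of the 6 lung libraries, in RPKM on a log axis, with WT lungs in blue, null lungs in red, null lung replicate 1 as an open circle and the mean of 3 libraries as a black line. The null lungs lie above the WT lungs for 7 of the 8 genes, and overlap for Dnah11.

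The 8 axonemal dynein heavy chains analysed were higher in null lung than in WT lung, by 0.61 to 1.78 on the log2 scale. None of the 8 passed the test when all 6 lungs were used. All 3 null lungs lay above all 3 WT lungs for 7 of the 8 genes, and none had the opposite order. The same order was found for 16.6% of the 15591 genes tested in lung. The median log2 fold change of the 8 genes was 1.28, that of the outer arm genes 1.24 and that of the inner arm genes 1.33, against 0.06 over all genes tested. Genes were called where the quasi-likelihood test of edgeR gave a Benjamini-Hochberg adjusted p under 0.05 and the change reached 1.2-fold. Of the 8 genes 0 were called, and 6 had an unadjusted p under 0.05. Over all genes 0.0898% were called higher in null lung.

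Leaving out null lung 1, so that null lungs 2 and 3 alone stood against the WT lungs, changed that count to 7 of 8, all but *Dnah7b*. Over all genes 18% were then called higher in null lung, with a median over all genes of -0.01 and a median over the 8 members of 1.33. Each of the 8 log2 fold changes moved by less than its SE when this library was left out. Among the null lungs it was the highest for *Dnah5*, *Dnah2* and *Dnah7b* and the lowest for *Dnah11* and *Dnah10*. An exact two-sided permutation test of 3 against 3 libraries cannot go below p = 0.1, and gave that value for each of the 7 genes whose groups did not overlap.

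*Dnah5* showed the largest difference of the outer arm. Normalised levels were 3.35, 9.85 and 6.93 CPM in WT lungs 1 to 3 and 29.3, 22.3 and 17.3 CPM in null lungs 1 to 3. The lowest null lung was above the highest WT lung, and the WT lungs differed among themselves. The log2 fold change was 1.78 (SE 0.43, adjusted p = 0.0913 by edgeR), and without null lung 1 it was 1.57 (SE 0.38, adjusted p = 0.0162).

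*Dnah9* and *Dnah11* encode the beta-type chains that pair with DNAH5. *Dnah9* measured 4.73, 7.003 and 6.35 CPM in the WT lungs and 13.4, 16.6 and 12.6 CPM in the null lungs. No null lung reached down to the WT range. Its log2 fold change was 1.24 (SE 0.24, adjusted p = 0.0687), and 1.28 (adjusted p = 0.00455) without null lung 1. *Dnah11* measured 3.77, 6.79 and 5.57 CPM in the WT lungs and 4.93, 12.2 and 8.84 CPM in the null lungs. Null lung 1 lay inside the WT range and the other null lungs above it, so *Dnah11* was the only member whose genotypes overlapped in lung (exact permutation p = 0.3). Its log2 fold change was 0.69 (SE 0.40, adjusted p = 0.330), and 0.97 (adjusted p = 0.0269) without null lung 1. The ratio of *Dnah9* to *Dnah11*, in RPKM, was 0.934 to 1.14 in WT lung and 1.24 to 2.47 in null lung, with the highest value in null lung 1.

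The opposite-strand gene *Cdca7l* covers 642 bases of *Dnah11* exons, 4.44% of their length. *Dnah2os* covers 312 bases, 2.08%, of the exons of *Dnah2*, *Gm35823* 4.22% of those of *Dnah1* and *Gm12296* 3.1% of those of *Dnah9*. *Gm20560* covers 1.26% of the exons of *Dnah6* and *Gm43777* 1.17% of those of *Dnah10*. The library kit marked the strand, but the strand setting of the counting is not given in the sources used here, so reads from these shared stretches may have been counted for either gene.

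*Dnah2* and *Dnah10* supply the heavy chains of the double-headed inner arm. *Dnah2* measured 3.77, 5.30 and 3.97 CPM in the WT lungs and 10.7, 7.91 and 7.33 CPM in the null lungs. All null lungs were above all WT lungs, with null lung 1 highest. The log2 fold change was 0.99 (SE 0.27, adjusted p = 0.108), and 0.81 (adjusted p = 0.0204) without null lung 1. *Dnah10* measured 5.19, 8.67 and 5.11 CPM in the WT lungs and 14.97, 17.1 and 15.5 CPM in the null lungs. The null lungs lay close together and above the WT lungs. Its log2 fold change was 1.33 (SE 0.27, adjusted p = 0.0722), and 1.37 (adjusted p = 0.00561) without null lung 1.

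Of the single-headed inner arm genes, *Dnah6* had the smallest adjusted p of all 8 members. It measured 5.90, 9.85 and 8.67 CPM in the WT lungs and 21.8, 25.8 and 21.5 CPM in the null lungs. The log2 fold change was 1.502 (SE 0.24, adjusted p = 0.0553), and 1.54 (adjusted p = 0.00255) without null lung 1. *Dnah1* behaved much alike, with 2.81, 3.61 and 3.63 CPM in the WT lungs and 8.68, 11.5 and 7.63 CPM in the null lungs. Its log2 fold change was 1.47 (SE 0.26, adjusted p = 0.0638), and 1.52 (adjusted p = 0.00329) without null lung 1. For both genes the null lungs lay wholly above the WT lungs.

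*Dnah7b* had the lowest log2 fold change when all 6 lungs were used. With WT lung 1, null lung 2 or null lung 3 left out, that of *Dnah11* was lower. It measured 3.23, 3.99 and 3.57 CPM in the WT lungs and 6.67, 5.09 and 4.73 CPM in the null lungs. The null lungs were all above the WT lungs, null lung 1 farthest. The log2 fold change was 0.61 (SE 0.25, adjusted p = 0.202), and it did not pass the test without null lung 1 either (0.45, adjusted p = 0.110). *Dnah7b* has near-identical copies, *Dnah7a* and *Dnah7c*, between which reads can be split or lost. In these tables *Hba-a1*, an alpha-globin gene with a near-identical copy, was listed at 0 in all 12 libraries. *Dnah7a* held 24 to 30 counts in the WT lungs and 56 to 71 in the null lungs, with a log2 fold change of 1.36 (SE 0.35, adjusted p = 0.0998), and 1.10 (adjusted p = 0.0221) without null lung 1.

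**Figure D2:**
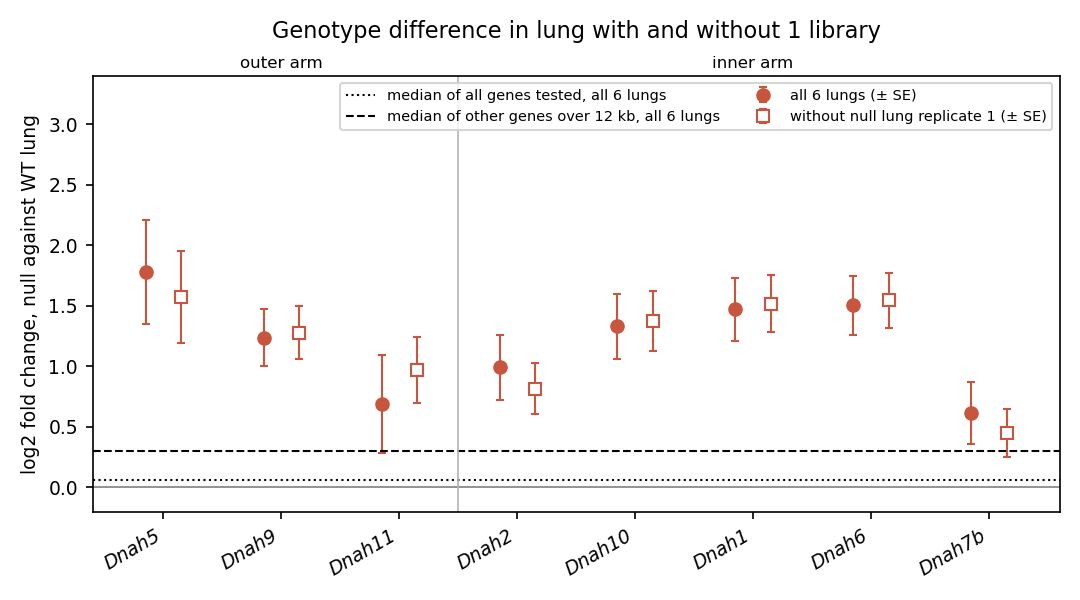
Log2 fold change of each gene in null against WT lung with its SE, from all 6 lungs (circles) and without null lung replicate 1 (squares). The dotted line is the median of all genes tested (0.06) and the dashed line the median of the other genes with transcripts over 12 kb (0.30), both from all 6 lungs, and every member lies above both lines.

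Long genes as a class were somewhat higher in null lung. Among genes that are no members, the median log2 fold change was 0.07 for transcripts under 2 kb, 0.01 from 2 to 4 kb, 0.09 from 4 to 8 kb, 0.25 from 8 to 12 kb and 0.30 for the 163 genes over 12 kb. In null against WT liver the median was -0.05 under 2 kb, 0.26 from 8 to 12 kb and 0.28 over 12 kb. In lung the members, all in the last class, had a median of 1.28. With the trend on length and GC content taken out, that median was 1.08 with 0 members called, and without null lung 1 it was 1.06 with 5 called (*Dnah5*, *Dnah9*, *Dnah10*, *Dnah1* and *Dnah6*), against 20% of all genes called higher in that fit.

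The transcription factor *Foxj1*, which commits cells to the motile cilia programme, did not separate the genotypes. It measured 37.8, 70.4 and 67.0 CPM in the WT lungs and 51.6, 50.3 and 48.4 CPM in the null lungs. The null lungs lay within the range of the WT lungs (log2 fold change -0.22, SE 0.25, adjusted p = 0.603 by edgeR, exact permutation p = 0.5). Set against *Foxj1*, the summed CPM of the 8 heavy chains was 0.654 to 0.866 times its level in WT lung. In null lung it was 1.97 to 2.35 times its level, without overlap. *Foxj1* was picked after its values were seen, and this ratio depends on the gene used as divisor. *Hydin* and *Cdhr3*, also genes of multiciliated cells, had log2 fold changes of 1.41 and 1.18, near the heavy chain median of 1.28. *Foxj1*, *Mcidas* and *Tppp3* had negative values, and the others of that list lay between. Heavy chain RNA per multiciliated cell was not tested. Of the 11 genes of multiciliated cells, 8 had a positive log2 fold change, and the median of the 11 was 0.51. Among genes that are no members, 50.9% to 69.1% were positive, depending on the length class. *Rfx3* (0.06) and *Ccno* (0.14) were near 0, and *Sntn* went from 0.60 to 0.03 without null lung 1. The summed level of the 11 was 240 to 335 CPM of total counts in WT lung and 231 to 348 in null lung. That overlap was carried by *Tppp3* (125 to 177 CPM in WT, 92.2 to 191 CPM in null) and *Foxj1*, which both had negative values. None of the 11 was at 0 in any lung.

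Markers of other cells moved too. Of the 4 airway secretory cell genes, *Scgb3a2* measured 903 to 914 CPM of total counts in WT lung and 1308 to 3095 in null lung, and *Muc5b* 0.511 to 1.74 CPM in WT lung and 4.73 to 593 in null lung. The 593 CPM of *Muc5b* was that of null lung 1. *Scgb3a2* and *Muc5b* were both higher in every null lung, and both rose without null lung 1 (1.23, adjusted p = 0.00742 and 3.09, adjusted p = 0.00425 by edgeR). *Cyp2f2* went the other way, with overlap: 234 to 445 normalised CPM in WT lung and 148 to 389 in null lung. Its log2 fold change was -0.28, and -0.67 (adjusted p = 0.126 by edgeR) without null lung 1. *Scgb1a1* was at 248 CPM in null lung 1 and at 1898 to 2680 CPM in the other lungs, and the 4 genes summed to 3373 to 4063 CPM in WT lung and 3360 to 5326 in null lung. Of the 4 alveolar type 1 genes, *Pdpn* and *Hopx* fell without null lung 1, by 1.25 and 0.71 on the log2 scale (adjusted p = 0.00101 and 0.00190), and of the 5 muscle genes *Ckm*, *Myh6* and *Actc1* rose, by 1.504, 1.42 and 0.64. None of the 4 alveolar type 2 genes was called without null lung 1. The part of cell numbers, or of other cells, in the heavy chain difference was not tested.

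The partners of the heavy chains were split. The lists hold 36 tested genes in lung, of which 24 had a positive log2 fold change and 0 were called with all 6 lungs. Without null lung 1, 13 rose and 4 fell, against 18% and 19% of all genes. The list of intermediate and light chains, which hold the arm together, had a median log2 fold change of 1.21, with 6 of 8 rising and 1 falling without null lung 1. *Wdr63*, an inner arm intermediate chain, had a log2 fold change of 1.44 (adjusted p = 0.0960), and 1.38 (adjusted p = 0.0164) without null lung 1. *Dnaic1* and *Dnaic2*, the intermediate chains of the outer arm, had 1.37 and 1.33, and both rose without null lung 1 (1.02, adjusted p = 0.0118 and 1.25, adjusted p = 0.0225). *Dnal1*, an outer arm light chain, fell by 0.81 on the log2 scale without null lung 1 (adjusted p = 0.00542).

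The 6 docking genes, which attach the arms to the axoneme, had a median of 0.61, and *Armc4* and *Ccdc39* rose without null lung 1, by 1.11 (adjusted p = 0.0424) and 1.04 (adjusted p = 0.0486), while *Ccdc40* stood at 0.57 (adjusted p = 0.142). The 11 assembly factors tested, which fold the heavy chains in the cytoplasm, had a median of 0.04. Without null lung 1, *Zmynd10* rose by 1.15 (adjusted p = 0.0230) and *Dnaaf3* by 0.78 (adjusted p = 0.0350), whereas the chaperone ATPases *Ruvbl1* and *Ruvbl2* fell by 0.59 and 0.40 on the log2 scale (adjusted p = 0.0133 and 0.0331). The multiciliated cell genes had a median of 0.51. *Hydin*, which encodes a protein of the central pair and is as long as the heavy chains, had 1.41 (adjusted p = 0.0649), and 1.47 (adjusted p = 0.00342) without null lung 1. *Cdhr3* and *Rsph1* also rose without null lung 1, by 1.15 (adjusted p = 0.00431) and 0.83 (adjusted p = 0.0454), and *Tppp3* fell by 0.56 (adjusted p = 0.0215).

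**Figure D3:**
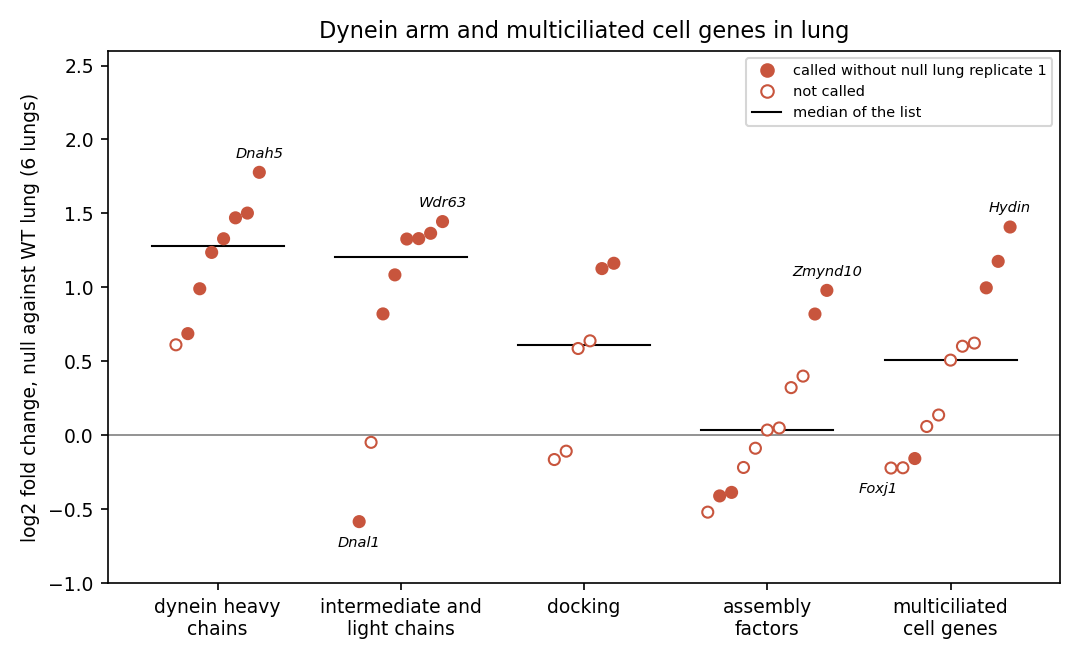
Log2 fold change in null against WT lung from all 6 lungs for every tested gene of the heavy chains and of 4 lists of partner genes, with the median of each list as a line. Filled points were called without null lung replicate 1, and heavy chains and intermediate and light chains have the highest medians, 1.28 and 1.21.

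The genes most alike to the heavy chains over the 6 lung libraries were *T2*, *Cfap57*, *Hsp90b1*, *Hydin*, *Mycbpap*, *Srp19*, *Cfap52*, *Csnk1a1*, *Pih1h3b* and *Rab12*, with a mean Pearson r with the 8 members of 0.923 to 0.928. *Cfap57*, *Hydin* and *Cfap52* encode axonemal proteins, and *Hsp90b1* an endoplasmic reticulum chaperone. This is a description over 6 points that share the gap between genotypes and null lung 1.

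In liver most of these genes were at the edge of detection. A floor of 3 counts in a library corresponded to 0.0699 to 0.112 CPM, and covers counting error only. Of the 8 genes, 3 were above that floor in all 6 livers, *Dnah2*, *Dnah1* and *Dnah11*, and only *Dnah2* reached 10 counts in all 6. *Dnah1* held 10, 11 and 4 counts in WT livers 1 to 3 and 12, 7 and 4 in null livers 1 to 3. *Dnah11* held 9, 7 and 5 counts in the WT livers and 14, 13 and 4 in the null livers. For neither gene did the genotypes separate, and *Dnah1* was tested with a log2 fold change of -0.10 (SE 0.56, adjusted p = 0.913). *Dnah2*, *Dnah1* and *Dnah11* have the opposite-strand overlaps given above. So have *Dnah9*, *Dnah6* and *Dnah10*, which were not above the floor in all 6 livers. *Cdca7l*, which shares exon bases with *Dnah11*, held 333 to 435 counts in the livers. Whether reads of these neighbours were counted for the heavy chains was not tested.

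*Dnah6* and *Dnah7b* were above the floor in every WT liver but not in every null liver. *Dnah6* held 14, 9 and 11 counts in the WT livers and 4, 3 and 9 in the null livers, which overlapped at 9 counts. *Dnah10* held 5, 2 and 6 counts in the WT livers and 2, 3 and 0 in the null livers. *Dnah9* held 2, 2 and 1 in the WT livers and 2, 5 and 1 in the null livers, and *Dnah5* 2, 4 and 0 in the WT livers and 0, 0 and 1 in the null livers. These last 3 genes were at or under the floor in most livers, so a difference between genotypes was not detectable at this depth. *Foxj1* held 6 to 15 counts in the WT livers and 1 to 13 in the null livers.

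**Figure D4:**
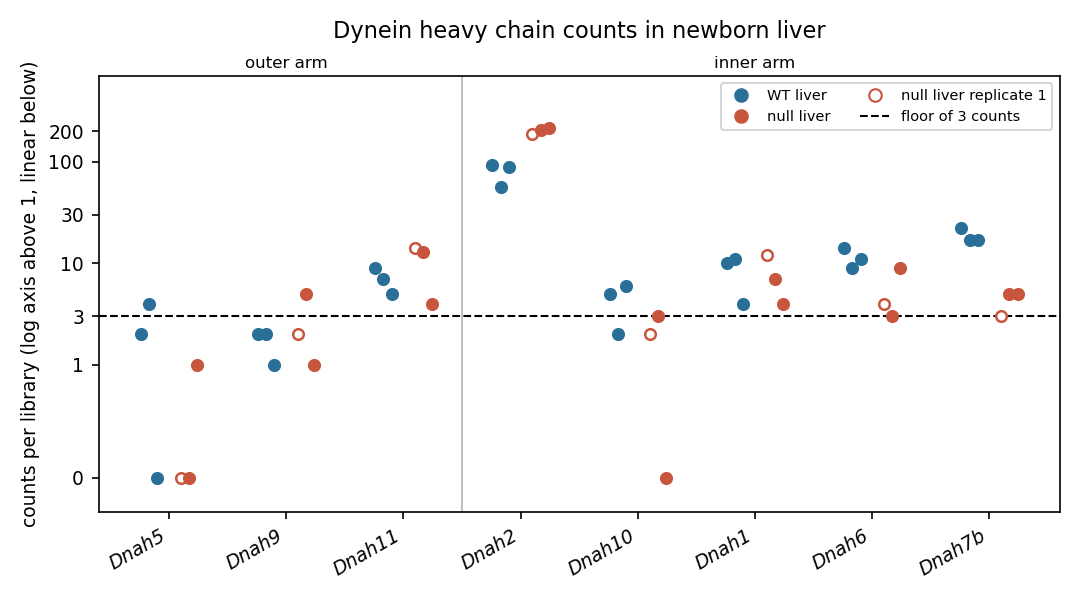
Counts of each gene in each of the 6 liver libraries, on an axis that is logarithmic above 1 and linear below, with the floor of 3 counts dashed. Dnah2 lies far above the floor in all livers and is higher in the 3 null livers, and Dnah7b is higher in the 3 WT livers.

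*Dnah2* rose and *Dnah7b* fell in null liver. They were 2 of the 3 members that passed the filter on low counts, beside 26.9% of all genes called in liver in either direction. *Dnah7b* reached 10 counts only in the WT livers, so the filter kept it through the group where it was high. With all 8 members tested, 2 were called by DESeq2, beside 23.7% of all genes. With at least 1 count in all as the filter, 2 of 8 were called, beside 17.2% of all genes. *Dnah2* held 93, 56 and 89 counts in the WT livers and 189, 207 and 213 in the null livers, or 2.20 ± 0.417 against 5.93 ± 0.845 CPM (SD, n = 3). Every null liver was at least at 5.36 CPM and no WT liver above 2.54 CPM. The log2 fold change was 1.43 (SE 0.22, adjusted p = 0.00534). *Dnah7b* held 22, 17 and 17 counts in the WT livers and 3, 5 and 5 in the null livers, or 0.524 ± 0.0775 against 0.127 ± 0.0389 CPM. It fell by 2.02 on the log2 scale (SE 0.39, adjusted p = 0.00988). Both calls held when any liver was left out, null liver 1 included. The near copy *Dnah7a* held 0 counts in the WT livers and 1 in each null liver.

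Partners in liver showed no common direction. Of 20 tested genes of the 4 lists, 4 rose and 2 fell, a share near the 26.9% of all genes called in liver. *Dnaic2* held 37, 21 and 21 counts in the WT livers and 106, 294 and 222 in the null livers (log2 fold change 3.02, SE 0.43, adjusted p = 0.00428). *Hydin* rose by 1.79 (adjusted p = 0.00755), *Ccno*, a regulator of centriole amplification, by 1.67 (adjusted p = 0.0115), and the intermediate chain *Wdr78* by 1.15 (adjusted p = 0.0367). The assembly factors *Spag1* and *Ruvbl1* fell by 1.35 (adjusted p = 0.0253) and 0.34 (adjusted p = 0.0449) on the log2 scale. *Dnaaf2* stood at -0.47 (adjusted p = 0.0546), *Dnal4* at -0.27 (adjusted p = 0.172) and *Tppp3* at 2.33 (adjusted p = 0.192). Neither of the 2 docking genes tested was called (*Ccdc40*, -0.67, adjusted p = 0.143 and *Ccdc114*, -0.45, adjusted p = 0.312). With any 1 WT liver left out, 3 of the 21 genes then tested were called, beside 11.3% to 15.6% of all genes. Without null liver 1, *Wdr78* (adjusted p = 0.0663) and *Ruvbl1* (adjusted p = 0.123) were no longer called, *Dnaic1* was called lower (-1.77, adjusted p = 0.0372) and *Zmynd10* higher (2.32, adjusted p = 0.0180), and *Tppp3* turned to -0.87 (adjusted p = 0.211).

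Between tissues, 7 of the 8 heavy chains were higher in WT lung than in WT liver, beside 39.8% of all genes called higher in lung. The ratio of summed counts, scaled to total counts, was 125 for *Dnah9* (95% exact interval 53.3 to 387, counting error only), 111 for *Dnah5* (50.9 to 305) and 50.1 for *Dnah10* (29.1 to 94.5). It was 26.3 for *Dnah11*, 24.7 for *Dnah6*, 14.02 for *Dnah1* and 6.74 for *Dnah7b*. The log2 fold changes of these 7 genes in edgeR ran from 1.98 for *Dnah7b* (adjusted p = 3.11e-05) to 6.14 for *Dnah9*. *Dnah2* was the exception. It measured 4.35 ± 0.834 CPM in WT lung and 2.20 ± 0.417 CPM in WT liver when each tissue was normalised by itself, and in the joint fit of both tissues its log2 fold change was 0.18 (adjusted p = 0.460). That value turned to -0.68 (adjusted p = 0.0150) when the trend on length and GC content was taken out, so no direction is given for *Dnah2* between tissues.

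In the fit without pairs, the genotype effect differed between tissues for 1 of the 8 genes, *Dnah7b*, beside 0.371% of all genes. Its effect in lung minus that in liver was 2.64 on the log2 scale (SE 0.39, adjusted p = 0.0278), since it stood at 0.61 in lung and at -2.02 in liver. Lungs and livers of the same number deviated together, and with the replicate block this paired value was 2.63 (adjusted p = 0.115) and 0 genes were called. Without null lung 1, *Dnah7b* (2.51, adjusted p = 0.00886) and *Dnah6* (2.57, adjusted p = 0.0263) were called, beside 5% of all genes. For *Dnah2*, higher in null in both tissues, the difference was -0.44 (adjusted p = 0.595).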

How the data were processed

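RNA was measured by stranded poly-A sequencing of newborn lung and liver. The submitters' processing notes name FastQC, STAR 2.5.2a, DESeq2 and the mm10 genome, without saying what each was used for. The deposited files hold raw counts per gene that the authors made for each library, without normalisation. The counting program, its strand setting and its annotation are not given in the sources used here. Of the rows, 27 carried dates in place of gene names and were kept as listed, and 0 other columns of per-sample values were present.

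Counts were normalised by TMM, filtered with filterByExpr and tested with edgeR 4.0.16 quasi-likelihood fits (R 4.3.3), separately for null against WT lung, null against WT liver, WT lung against WT liver, and the interaction over all 12 libraries. P-values were adjusted by the Benjamini-Hochberg method over all genes tested. A gene was called at an adjusted p under 0.05 with at least a 1.2-fold change. The fits were tested on simulated data. The 3 libraries of a group came from separate mice, so p-values measure the spread between 3 mice. The lung p-values without null lung 1 rest on null lungs 2 and 3 alone, against 3 WT lungs. No pair of replicates agreed within sampling noise, with chi-square values per gene of 14.7 to 729. Single genes were compared by two-sided exact permutation of log2(CPM + 0.5). CPM in lung and liver were scaled by TMM within each tissue, and list sums were scaled to total counts. Lengths and positions came from GENCODE M21, matched for 98.3% of genes, and promoters from RefSeq.

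Same-numbered WT and null libraries did not deviate together (r = -0.04 to 0.16), whereas lung and liver of the same genotype and number did (r = 0.22 to 0.42 in all 6 pairs). From the data alone, those were taken as pairs in the replicate block of the fits between tissues and of the interaction. Within lung and within liver, the replicate block joined WT and null libraries of the same number, which did not deviate together. The reported fits between tissues and of the interaction used group means without pairs.

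The members and lists were chosen with earlier results of these data known. All members were named, with every gene of the lists called in lung or liver and, in a list with fewer than 3 calls, its 3 genes of lowest unadjusted p. *Foxj1*, the markers of other cells, *Hba-a1* and genes called without null lung 1 were named after their values were seen. Alternatives were DESeq2 1.42.0 as the test, its size factors or upper-quartile factors, other count minimums, no minimum fold, 1 fit of all libraries, abundant genes left out, a length and GC trend taken out, a replicate block, each library left out, and a floor of 10 counts. Sex read from *Xist*, combinations with null lung 1 left out, and transcript length in place of exon length were added after seeing the data.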

Additional observations from a re-analysis of the deposited data

Results flagged for a closer look

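The genotype effect on *Dnah7b* differed between lung and liver by 2.64 on the log2 scale in the edgeR test of the interaction (adjusted p = 0.0278), with higher counts in the 3 null lungs than in the 3 WT lungs and lower counts in the 3 null livers than in the 3 WT livers. With lung and liver of the same number paired the adjusted p was 0.115.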

How the results depend on the processing

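In lung the count of heavy chains called was 6 with DESeq2, 4 with all 12 libraries in 1 fit and 1 (*Dnah6*) with a minimum of 10 counts in every library, beside 11.8%, 14.1% and 1.46% of all genes called in either direction and 0.327% in the fit reported. It was 0 to 7 over the fits that left out a library, with 7 only when null lung 1 was left out; the other 5 gave 0. Without null lung 1, DESeq2 called 7 beside 32.8% of all genes, and taking out the trend on length and GC content left 5. Of the partner genes in lung DESeq2 called 11 of 38, and the fits that left out a library called 0 to 17 of 36, with 17 without null lung 1 beside 37% of all genes; in liver they called 3 to 6. With a minimum of 10 counts in every library 1 heavy chain was called in liver (*Dnah2*) and 1 between tissues, since fewer members were tested. The interaction count was 2 with DESeq2 beside 2.99% of all genes, 0 with that minimum, 0 with the replicate block, and 0 to 2 when a library was left out. The replicate block changed no other call of the members. With a floor of 10 counts in place of 3, 1 gene was above it in all livers. *Dnah2* between tissues turned to -0.68 without the length and GC trend. *Dnah1* in liver ran from -0.55 to 0.23, and the interaction of *Dnah11* from -0.22 to 0.42, over the fits that left out a library. Among the members' median log2 fold changes in lung, the same fits gave 1.14 to 1.44. Upper-quartile factors moved the median of all liver genes from 0.02 to -0.09. Sex read from *Xist*, with high counts in 1 WT and 2 null pups, changed no member's call within lung or liver as a covariate, and was not run for the other comparisons. The cause of these changes was not tested beyond the stated smaller number of genes.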

Other observations

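*Dnah17* and *Dnah8*, outer arm heavy chains known from sperm, were both counted in liver. *Dnah17* measured 4.88, 3.25 and 2.36 CPM in WT livers 1 to 3 and 5.16, 9.61 and 4.92 CPM in null livers 1 to 3. By these normalised values every null liver was above every WT liver, an order found for 3279 of the 14343 genes tested in liver. Scaled to total counts the groups overlapped, with WT liver 1 (5.17 CPM) above null livers 1 and 3 (5.15 and 4.30 CPM). The log2 fold change was 0.91 (adjusted p = 0.0941 by edgeR). In lung *Dnah17* measured 0.797 to 0.819 CPM in WT and 0.189 to 0.757 CPM in null, with the lowest value in null lung 1 (log2 fold change -0.58, adjusted p = 0.512). Every null lung was thus below every WT lung, an order found for 3037 of the 15591 genes tested in lung. *Dnah8* measured 0.838 to 2.20 CPM in WT liver and 1.23 to 2.00 CPM in null liver, and 2.73 to 3.50 CPM in WT lung against 2.73 to 5.33 CPM in null lung, with overlap in both tissues.

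The cytoplasmic dynein heavy chains are used by other cells too. *Dync1h1*, of the dynein that carries cargo along microtubules, rose in null liver from 60.9 ± 5.54 to 81.2 ± 2.12 CPM (SD, n = 3, log2 fold change 0.42, edgeR adjusted p = 0.0227). Genes with transcripts over 12 kb had a median log2 fold change of 0.28 in liver. In lung the log2 fold change of *Dync1h1* was 0.45 (adjusted p = 0.208), and 0.58 (adjusted p = 0.0126) without null lung 1. *Dync2h1*, of the dynein that returns cargo from the tip of primary and motile cilia, fell in null liver from 7.35 ± 1.42 to 4.20 ± 0.302 CPM (log2 fold change -0.81, edgeR adjusted p = 0.0211), and stood at -0.04 in lung (adjusted p = 0.904).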
